A study of Mus musculus with 9 samples.

Results

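The translation initiation and elongation factors were taken by symbol from a table of 46517 genes. Of 71 symbols that begin with Eif1 to Eif6, Eef1 or Eef2, the 6 pseudogenes and the 7 genes for eIF2-alpha kinases and 4E-binding proteins were left out, and 58 genes remained. RNA was sequenced from neutrophils of C57BL/6 mice that carried an orthotopic pancreatic tumor (OT mice), sorted on day 27 after cells of a luciferase-expressing line, derived from the pancreatic ductal adenocarcinoma of KPC mice, were injected into the pancreas. The compartments compared were bone marrow, blood and tumor, with 3 libraries each. The libraries came from pools of mice in 3 independent experiments, and the study describes the compartments as taken from the same animals. The labels do not tie library numbers to mice. Male and female mice were used in the study as a whole, and its methods do not give the sex of the mice in these pools. The study describes 1 gate for all compartments, DAPI- CD45+ Lin- Ly6G+ Ly6C+, although the labels call the bone marrow cells Ly6G.hi and the others Ly6G+. All mice bore tumors, so the comparisons are between sites in the body and not between tumor-bearing and healthy animals.

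Translation initiation factors (eIFs) bring the ribosome and the initiator tRNA to the start codon. The eIF4F complex (cap-binding eIF4E, scaffold eIF4G, helicase eIF4A) takes hold of the capped mRNA, eIF3 links it to the small ribosomal subunit, and eIF2 delivers the initiator tRNA and is recharged with GTP by eIF2B. Elongation factors (eEFs) then bring in each aminoacyl-tRNA (eEF1) and move the ribosome along (eEF2). Neutrophils make most of their granule proteins as precursors in the bone marrow, and circulating neutrophils are known as cells of low protein synthesis. Some symbols match the rule without naming an initiation or elongation factor. Eef2k is a kinase and Eef2kmt a methyltransferase of eEF2, Eef1e1 is a scaffold of the tRNA synthetase complex, Eif4enif1 carries eIF4E into the nucleus, and Eif2c5, which had 0 reads in all libraries, bears the former symbol of the Argonaute family.

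The libraries held 4580807 to 7949367 reads on genes. As a group, the 58 genes took 10568 to 12945 RPM (reads scaled to a common plain total) in tumor, 5632 to 6749 in bone marrow and 4918 to 5355 in the blood, and the 3 ranges did not overlap. Without Eef1a1, the most abundant of them, the ranges were 7711 to 8789, 4400 to 5097 and 3951 to 4210. Marker genes of other cells moved with the compartments. The 8 epithelial markers (Krt8, Krt18, Epcam and others) summed to 2727 to 5840 RPM in tumor against 8.02 to 10.9 in bone marrow and 21.4 to 141 in blood, the 6 fibroblast markers to 1098 to 1352 against at most 7.96, and the 5 acinar markers to 413 to 1896 against at most 6.88. The 10 mature neutrophil markers (S100a8, S100a9, Cxcr2 and others) were present in all libraries, at 14416 to 16775 in tumor, 36957 to 38073 in blood, and 45444 to 47013 in bone marrow. The 8 immature neutrophil markers (Mpo, Elane, Camp, Ltf and others) summed to 4146 to 8569 in tumor, 954 to 1347 in blood and 64812 to 69771 in bone marrow, and the 8 cell cycle genes to 246 to 447, 33.0 to 39.9 and 553 to 722 in that order. Also in that order, macrophage markers summed to 491 to 632, 1255 to 1417 and 380 to 392, endothelial ones to 74.9 to 117, 30.3 to 34.7 and 10.1 to 16.1, lymphocyte ones to 5.31 to 5.69, 41.3 to 69.6 and 21.7 to 37.5, red cell ones to 11.8 to 131, 224 to 438 and 24.7 to 53.2, and platelet ones to 3.86 to 9.33, 412 to 580 and 5.58 to 9.31. Among the tumor libraries, replicate 3 had the most and replicate 2 the fewest RPM of translation factors, epithelial markers, acinar markers and cell cycle genes. None of the other lists had this order. Fibroblast markers were most in replicate 3 and fewest in replicate 1, and immature neutrophil markers were most in replicate 1. Macrophage and endothelial markers were most in replicate 2 and fewest in replicate 3, where mature neutrophil markers were also fewest. The part of these other cells and of immature cells in the differences below was not tested. In sorted bulk samples, fewer cells of a type and less RNA per cell cannot be told apart.

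**Figure D1:**
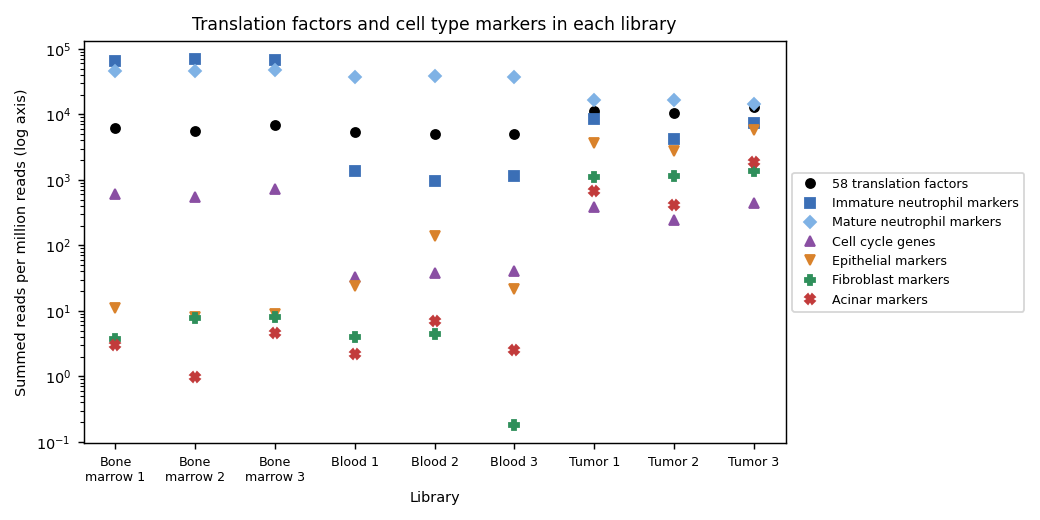
Summed RPM (log axis) of the 58 translation factors and of 6 marker lists in each of the 9 libraries, 1 symbol per list. The translation factors sit between 10568 and 12945 in the tumor libraries and at 6749 or less in the others, and the epithelial, fibroblast and acinar markers are also highest in the tumor libraries.

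Differences were tested on the deposited log2 FPKM values with limma over the 7794 genes that exceeded 0 in at least 3 libraries, at an adjusted p of 0.05. Of the 58 genes 46 were tested, 34 of them above 0 in all 9 libraries, and 12 were not. Against blood, 30 of the 46 rose in tumor, 4 were lower and 12 did not pass the test, while 28.1% of all genes tested were higher and 34.5% lower. Their median log2 fold change was 0.85, beside -0.17 over all genes. Against bone marrow, 22 rose in tumor, 4 were lower and 20 did not pass, with 22.4% and 32.9% of all genes, and medians of 0.46 and -0.21. In blood against bone marrow the direction was the other way: 20 fell, 2 rose and 24 did not pass, with 23.6% of all genes lower and 20.6% higher, and medians of -0.40 and -0.04. Some difference between compartments passed the F test for 35 of the 46 factors and for 73.6% of all genes. The tumor libraries serve in both tumor comparisons. A call in the same direction in both came out higher for 21 factors (16.5% of all genes) and lower for 1, Eif4e2 (23.7%). Eef1e1, Eef2k and Eif4e3 passed the filter through the tumor, the blood and the bone marrow libraries alone, in that order, so their differences from that compartment were built into the selection. The 34 factors above 0 in all 9 libraries held 21 higher and 2 lower against blood, 16 and 2 against bone marrow, and 1 and 11 in blood against bone marrow. The share of such calls among all genes above 0 in all 9 libraries was not computed. These counts and medians describe the factors that passed the filter, not all 58.

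The scale of the libraries bears on these counts. The deposited values rest on library sizes scaled by factors of 1.09 to 1.22 in tumor, 0.796 to 0.882 in bone marrow and 0.818 to 0.863 in blood. With plain totals every gene shifts up in tumor by 0.45 on the log2 scale against blood and against bone marrow, and all genes then split into 39.1% higher and 24.2% lower against blood and 35.1% and 20.7% against bone marrow. Of the factors, 35 were higher and 1 lower of 45 against blood, and 32 and 1 against bone marrow. Changes are therefore given relative to the deposited scaling.

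**Figure D2:**
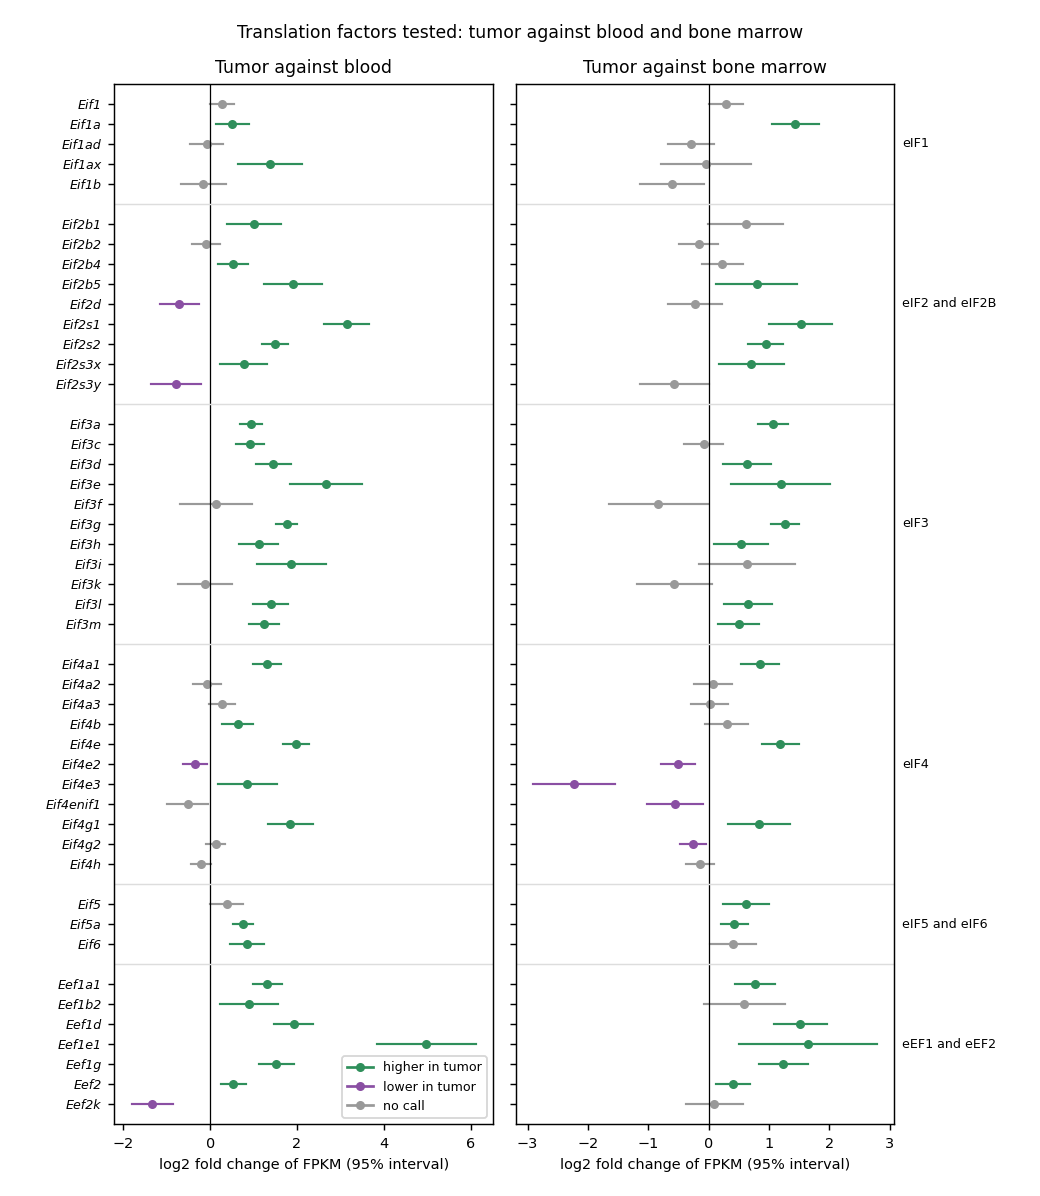
The log2 fold change of FPKM, tumor against blood (left) and against bone marrow (right), for the 46 factors tested, ordered by role. Points are limma estimates, lines are 95% intervals, and colors mark the calls at an adjusted p of 0.05. Most points of eIF2, eIF3 and the eEFs lie to the right of 0, while eIF4 holds points on both sides.

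Not tested were 12 factors below the filter. Eef1a2, the muscle and neuron form of eEF1A, had 1 read in all, and Eif4e1b and Eif2c5 had 0. The filter works on reads per base of a length that for most genes is the whole genomic span, so long genes fail it with ample reads. Eif4g3 failed it with 216 to 580 reads in every library. In limma-voom on reads recovered from the values, with 55 of the 58 factors measured, tumor was higher than blood for 34 and lower for 5 (33.1% and 21.9% of 17714 genes), and higher than bone marrow for 27 (29.3%) and lower for 6 (3722 of the 17714 genes).

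The factors eIF1 and eIF1A scan for the start codon. Of the 5 genes with symbols that begin with Eif1, Eif1ad among them, 2 rose against blood and 1 against bone marrow, and none fell. The shares that rose were close to those of all genes tested (28.1% and 22.4% higher). With plain totals 3 and 2 of the 5 rose, beside 39.1% and 35.1% of all genes. Eif1a stood at 2.01, 1.43 and 2.10 log2 FPKM in bone marrow, 2.78, 2.76 and 2.78 in blood and 3.30, 3.31 and 3.24 in tumor. Its groups did not overlap in any pair and stepped up from marrow to blood to tumor. The tumor difference was 1.44 ± 0.17 (SE, adjusted p = 0.000208) from bone marrow and 0.51 ± 0.17 (adjusted p = 0.0283) from blood. Blood was itself above bone marrow by 0.93 ± 0.17 (adjusted p = 0.00304). The X-linked paralog Eif1ax followed another order, at 0.23, 0.51 and 0.52 in bone marrow, -0.48, -0.87 and -1.62 in blood and 0.75, 0.18 and 0.20 in tumor. Blood was the low group for Eif1ax, and tumor overlapped bone marrow. It fell from bone marrow to blood by 1.41 ± 0.32 (adjusted p = 0.00883) and was 1.37 ± 0.32 higher in tumor than in blood (adjusted p = 0.0062). Per exonic length, Eif1a reads were 1.69 to 3.05 times those of Eif1ax in bone marrow, 8.57 to 18.9 times in blood, and in tumor 5.24 to 7.78 times, so that each bone marrow library was below all others in this ratio.

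Eif1, among the most abundant factors, read 7.48, 7.41 and 7.40 log2 FPKM in bone marrow, 7.38, 7.33 and 7.60 in blood and 7.71, 7.91 and 7.53 in tumor. Its tumor difference was 0.28 ± 0.12 against blood (adjusted p = 0.0759) and 0.28 ± 0.12 over bone marrow (adjusted p = 0.0774), neither past the threshold. With plain totals both passed, at 0.73 and 0.74. Its paralog Eif1b had 3.10, 3.53 and 3.06 in bone marrow, 2.90, 2.91 and 2.56 in blood and 2.78, 2.93 and 2.17 in tumor. The tumor difference of Eif1b from bone marrow was -0.60 ± 0.23 and just missed the threshold (adjusted p = 0.0523). Eif1ad passed no test. The call of Eif1a against blood was lost when any 1 of the blood or tumor libraries was left out (adjusted p up to 0.0689).

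eIF2 rose through its alpha and beta subunits. Eif2s1 encodes the alpha subunit, whose phosphorylation halts initiation under stress, and lies at chr12:78861819-78887010 (GRCm38). It read 1.01, 0.44 and 0.75 log2 FPKM in bone marrow, -0.70, -0.67 and -1.26 in blood and 2.37, 2.09 and 2.32 in tumor. The lowest tumor library was more than 1 log2 unit above the highest bone marrow library, and all blood libraries lay below both. It was 8.82-fold higher in tumor than in blood (log2 3.14 ± 0.22, adjusted p = 1.59e-05) and 2.89-fold higher than in bone marrow (1.53 ± 0.22, adjusted p = 0.000721). Eif2s2, the beta subunit, read 0.94, 0.90 and 1.05 in bone marrow, 0.26, 0.52 and 0.46 in blood and 1.99, 1.88 and 1.85 in tumor. It had the same order with no overlap, and rose by 1.49 ± 0.13 against blood (adjusted p = 3.48e-05) and 0.94 ± 0.13 over bone marrow (adjusted p = 0.000434). Both subunits fell from bone marrow to blood, Eif2s1 by 1.61 ± 0.22 (adjusted p = 0.000941) and Eif2s2 by 0.55 ± 0.13 (adjusted p = 0.0095).

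The gamma subunit is made from an X-linked and a Y-linked copy, and these moved apart. Eif2s3x read 0.08, 0.34 and 0.69 log2 FPKM in bone marrow, 0.21, 0.46 and 0.24 in blood and 1.15, 0.71 and 1.37 in tumor. Its tumor libraries lay above all others, by 0.77 ± 0.23 over blood (adjusted p = 0.0204) and 0.71 ± 0.23 over bone marrow (adjusted p = 0.0332). Eif2s3y read 3.28, 3.15 and 3.24 in bone marrow, 3.58, 3.23 and 3.52 in blood and 2.90, 3.04 and 2.04 in tumor. It was 0.79 ± 0.25 lower in tumor than in blood (adjusted p = 0.024), a difference that with plain totals was -0.34 and not called. Against bone marrow it was -0.57 ± 0.25 and did not pass (adjusted p = 0.086). Per exonic length, Eif2s3x reads were 0.157 to 0.246 times those of Eif2s3y in bone marrow, 0.139 to 0.211 times in blood, and in tumor 0.286 to 0.907 times. Xist, the RNA of the inactive X in female cells, moved with this pair: its reads numbered 822 to 1507 per tumor library and at most 5 in any other, with the most in tumor replicate 3, where Eif2s3y was lowest. Reads of the Y-linked Ddx3y were present in all libraries (377 to 1101) and did not pass the test in either tumor comparison (adjusted p = 0.375 and 0.201). Of 2 further Y-linked genes below the filter, Kdm5d was lower in tumor by limma-voom (-1.06 and -1.46) and Uty was not called (-0.40 and -0.02). The part of the sex of the cells in the difference was not tested. The calls of the pair were not firm: that of Eif2s3y was lost without blood replicate 1 or 3 (adjusted p up to 0.0703), and those of Eif2s3x without tumor replicate 1 or 3, blood replicate 1 or 3 or bone marrow replicate 1 or 2 (up to 0.0656 against blood and 0.107 against bone marrow).

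Of the exchange factor eIF2B, Eif2b5 encodes the catalytic epsilon subunit. It read 0.67, 0.11 and 0.55 log2 FPKM in bone marrow, -0.75, -1.04 and -0.24 in blood and 0.82, 1.46 and 1.44 in tumor. Tumor was above blood by 1.92 ± 0.29 (adjusted p = 0.000648) and above bone marrow by 0.80 ± 0.29 (adjusted p = 0.0463), and the second call was lost without any 1 of 6 libraries (all of bone marrow, blood replicate 1, tumor replicates 2 and 3, adjusted p up to 0.141). Eif2b1, the alpha subunit, read 1.34, 1.24 and 1.10 in bone marrow, 0.77, 1.12 and 0.62 in blood and 2.02, 1.25 and 2.26 in tumor. It passed the test against blood alone (1.01 ± 0.27, adjusted p = 0.0115), and its lowest tumor library overlapped bone marrow, from which it differed by 0.61 ± 0.27 (adjusted p = 0.0854). Eif2b4 rose against blood by 0.53 ± 0.15 (adjusted p = 0.0141), a call lost in limma-voom (adjusted p = 0.0681), and Eif2b2 passed no test. Eif2b3 was below the filter, with 8 to 28 reads in bone marrow and blood and 50 to 128 in tumor (limma-voom log2 2.35 against blood, adjusted p = 0.00265). Eif2a, an alternative initiator tRNA factor also below the filter, had 196 to 422 reads in tumor and 45 to 183 elsewhere, and was higher in limma-voom by 1.70 against blood and 0.88 against bone marrow (adjusted p = 0.00247 and 0.0362). On the log2 FPKM scale its tumor and bone marrow libraries overlapped (tumor replicate 2 at -0.209, bone marrow replicate 3 at -0.199). Over the 9 genes of eIF2, eIF2B and Eif2d that were tested, 6 rose and 2 were lower against blood (28.1% and 34.5% of all genes). Against bone marrow 4 rose and none was lower (22.4% and 32.9%). Under plain totals it was 6 and 0 in each comparison (39.1% and 24.2%, then 35.1% and 20.7% of all genes). The second of the genes lower against blood was Eif2d, a factor that delivers tRNA without eIF2. It was 0.72 ± 0.19 lower in tumor than in blood (adjusted p = 0.0125), and plain totals took that call away.

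eIF3 is the largest initiation factor. Of its 11 subunit genes tested, 9 rose in tumor against blood, 7 against bone marrow, and none was lower in either, while 28.1% and 22.4% of all genes tested were higher. With plain totals it was 9 and 8, beside 39.1% and 35.1% of all genes. In limma-voom, with 14 subunit genes, 11 were higher against blood, and 9 were higher and 1 (Eif3f) lower against bone marrow. The shares of all genes there were 33.1% higher against blood, and 29.3% higher and 21% lower against bone marrow. From bone marrow to blood 8 of the 11 fell, beside 23.6% of all genes, and 7 with plain totals, beside 23%. Eif3g, an RNA-binding subunit, had the smallest p of all factors. It read 2.95, 2.80 and 2.997 log2 FPKM in bone marrow, 2.39, 2.53 and 2.33 in blood and 4.14, 4.08 and 4.30 in tumor. It was 3.38-fold higher in tumor than in blood (log2 1.76 ± 0.10, adjusted p = 6.27e-06) and 2.40-fold higher than in bone marrow (1.26 ± 0.10, adjusted p = 3.04e-05). Eif3a, a scaffold subunit, read 1.74, 1.72 and 1.63 in bone marrow, 1.96, 1.86 and 1.65 in blood and 2.70, 2.84 and 2.74 in tumor. Between blood and bone marrow it passed no test (0.13 ± 0.11, adjusted p = 0.385), and in tumor it stood 0.94 ± 0.11 above blood and 1.07 ± 0.11 above bone marrow (adjusted p = 0.00018 and 0.000116).

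Eif3d, a subunit that can bind the cap itself, read 1.80, 1.63 and 1.82 log2 FPKM in bone marrow, 1.07, 1.14 and 0.58 in blood and 2.21, 2.45 and 2.49 in tumor. Eif3m, of the structural core, read 2.00, 1.97 and 1.65, then 1.17, 1.13 and 1.09, then 2.38, 2.16 and 2.58 in the same order of compartments. For both genes no group overlapped another, with blood lowest and tumor highest. Eif3d rose in tumor by 1.45 ± 0.17 against blood (adjusted p = 0.000183) and 0.63 ± 0.17 over bone marrow (adjusted p = 0.0146). Eif3m rose by 1.24 ± 0.15 (adjusted p = 0.000192) and 0.50 ± 0.15 (adjusted p = 0.0205). Eif3e, Eif3h and Eif3l had the same order of groups without overlap, and the largest change among the subunits tested was that of Eif3e against blood, 6.35-fold over blood (log2 2.67 ± 0.36, adjusted p = 0.00035). Eif3c and Eif3i passed against blood alone (0.91 and 1.87), and against bone marrow their differences were -0.08 and 0.63 (adjusted p = 0.653 and 0.154). Against bone marrow single libraries decided the calls of Eif3d (bone marrow replicate 2, adjusted p = 0.0519 without it), Eif3e (tumor replicate 1 or 3 or bone marrow replicate 1 or 2, up to 0.0671), Eif3m (tumor replicate 1 or 3 or bone marrow replicate 3, up to 0.0667) and Eif3h (any of 7 libraries, all but blood replicates 1 and 3, up to 0.131).

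Eif3f and Eif3k did not follow the others. Eif3f was highest in bone marrow, at 4.39 to 4.60 log2 FPKM, and its 3 blood libraries spread from 2.90 to 4.24 and its tumor libraries from 3.12 to 4.09. Its differences from bone marrow, -0.83 ± 0.35 in tumor and -0.97 ± 0.35 in blood, did not pass (adjusted p = 0.0789 and 0.0581), and passed in limma-voom (0.0175 and 0.0181). Eif3k ranged from 0.91 to 1.95 over all 9 libraries and passed no test. In exonic RPKM (RPM per kb of exons), Eif3h had the highest mean of the subunits in tumor, at 102 ± 20.1 (SD, n = 3), and Eif3b, Eif3j1 and Eif3j2 the lowest. Eif3b, a core scaffold subunit below the filter, had 107 to 305 reads in tumor, 11 to 15 in blood and 40 to 77 in bone marrow. In limma-voom its tumor libraries were higher, by log2 3.14 against blood (adjusted p = 0.000293) and by 1.504 relative to bone marrow (adjusted p = 0.00309). The duplicated genes of the loosely bound eIF3j were unequal, with 138, 98 and 109 reads of Eif3j1 in bone marrow, 30, 47 and 93 in blood and 124, 336 and 283 in tumor. Eif3j2 had 4, 5 and 0 reads, then 3, 0 and 2, then 6, 15 and 13. Stretches of 100 bases shared with the other copy make up 84.0% of the Eif3j2 transcripts and 36.0% of those of Eif3j1, so reads of the pair may have been split between them.

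**Figure D3:**
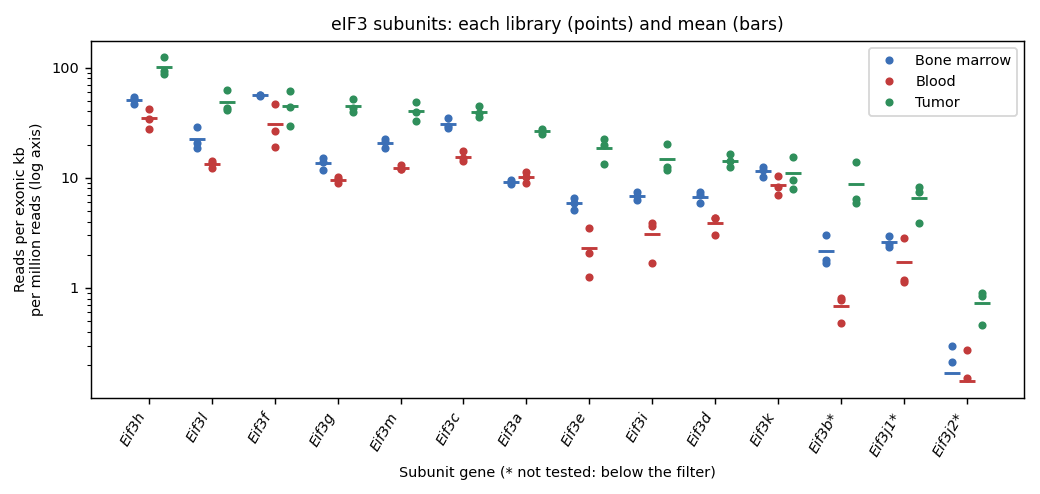
Exonic RPKM, RPM per kb of exons (log axis) of the 14 eIF3 subunit genes in each library (points) with the mean of each compartment (bars), ordered by the tumor mean. Libraries with 0 reads of Eif3j2 have no point. Tumor points lie above blood points for most subunits, and those of Eif3f and Eif3k overlap.

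eIF4, the cap-binding group, held calls in both directions. Of 11 genes tested, 5 rose and 1 was lower in tumor against blood, beside 28.1% and 34.5% of all genes. Against bone marrow 3 rose and 4 were lower, shares close to the 22.4% and 32.9% of all genes. With plain totals, of 10 genes tested it was 8 and 0, and 7 and 1, beside 39.1% and 24.2%, then 35.1% and 20.7% of all genes. The 3 that rose against both were Eif4e, Eif4g1 and Eif4a1, which encode the main forms of the cap-binding protein, the scaffold and the helicase. None of their tested paralogs was called higher against both under the deposited scaling, while Eif4a2 and Eif4a3 were with plain totals. Eif4e2 was called lower against both under the deposited scaling, and Eif4g3 was not tested on it. Eif4e (chr3:138526179-138559696, GRCm38) read 0.89, 0.85 and 0.87 log2 FPKM in bone marrow, 0.19, 0.06 and -0.02 in blood and 2.10, 2.18 and 1.90 in tumor. The compartments were apart in each pair, with blood lowest. Tumor was 3.95-fold above blood (log2 1.98 ± 0.13, adjusted p = 1.16e-05) and 2.28-fold above bone marrow (1.19 ± 0.13, adjusted p = 0.000162).

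Eif4e3 (chr6:99625135-99666771), which encodes an eIF4E relative that binds the cap in an atypical way, read 0.45, 0.54 and 0.66 log2 FPKM in bone marrow, -2.36, -2.77 and -2.47 in blood and -1.28, -2.14 and -1.61 in tumor. Bone marrow stood alone at the top: against it, blood was 3.08 ± 0.29 lower (adjusted p = 0.000161) and tumor 2.23 ± 0.29 lower (adjusted p = 0.000408). Eif4e3 passed the filter through its bone marrow libraries alone, so a difference from them was built into its selection. Its rise in tumor over blood (0.85 ± 0.29, adjusted p = 0.0345) was lost without any 1 of 7 libraries (all but blood replicate 1 and tumor replicate 2, adjusted p up to 0.102) and with 1 FPKM added to the values. Eif4e2, the repressive relative 4EHP, read 1.20, 1.22 and 1.04 in bone marrow, 0.98, 1.07 and 0.92 in blood and 0.63, 0.65 and 0.66 in tumor. It was lower in tumor by 0.34 ± 0.12 against blood (adjusted p = 0.037) and 0.50 ± 0.12 relative to bone marrow (adjusted p = 0.00841). With plain totals the blood difference turned to 0.10 and neither call stood, and the blood call was lost without any 1 of 8 libraries (all but bone marrow replicate 3, adjusted p up to 0.109).

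Ratios between paralogs in the same library do not depend on the scaling. Per exonic length, Eif4e reads were 0.389 to 0.457 times those of Eif4e3 in bone marrow, 1.85 to 2.40 times in blood, and in tumor 3.51 to 6.79 times. Against Eif4e2 the ratio was 1.22 to 1.40, 0.780 to 0.910 and 3.71 to 4.55. In bone marrow Eif4e3 thus had more reads per exonic length than Eif4e in all 3 libraries, and in the tumor libraries Eif4e had the most of the 3 genes. The bone marrow order depends on the length used. The deposited values rest for most genes on the genomic span. On that scale Eif4e was the higher in bone marrow, at 0.85 to 0.89 log2 FPKM against 0.45 to 0.66 for Eif4e3.

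Eif4g1 read 1.32, 0.87 and 1.42 log2 FPKM in bone marrow, 0.20, 0.06 and 0.32 in blood and 1.63, 2.23 and 2.26 in tumor. It rose in tumor by 1.84 ± 0.22 against blood (adjusted p = 0.00021) and 0.83 ± 0.22 over bone marrow (adjusted p = 0.0138). Eif4g2, a relative that lacks the eIF4E-binding part and serves cap-independent initiation, read 5.67, 5.89 and 5.96, then 5.39, 5.44 and 5.54, then 5.55, 5.64 and 5.55. Per exonic length it was the highest of the scaffolds in every library, and tumor differed by 0.12 ± 0.09 from blood (95% interval -0.09 to 0.34) and -0.26 ± 0.09 from bone marrow (adjusted p = 0.0415). That call was lost without any 1 of 8 libraries (all but bone marrow replicate 1, adjusted p up to 0.131), and with plain totals the sign turned, to 0.19. Eif4g3, a full-length relative of Eif4g1, had 566, 444 and 580 reads in bone marrow, 316, 379 and 365 in blood and 216, 271 and 301 in tumor, and in limma-voom it was lower in tumor by 1.04 against blood (adjusted p = 9.93e-05) and 1.20 relative to bone marrow (adjusted p = 2.05e-05). Eif4g1 reads per exonic length were 0.867 to 1.14 times those of Eif4g3 in bone marrow, 0.532 to 0.598 times in blood, and in tumor 3.31 to 4.86 times.

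Of the helicases, Eif4a1 read 5.64, 5.38 and 5.93 log2 FPKM in bone marrow, 5.15, 5.28 and 5.16 in blood and 6.45, 6.46 and 6.61 in tumor. Its rise was 1.31 ± 0.14 against blood (adjusted p = 9.77e-05) and 0.85 ± 0.14 over bone marrow (adjusted p = 0.00111). Eif4a2, which has also been tied to microRNA-mediated repression, read 5.57, 5.77 and 5.46, then 5.69, 5.63 and 5.92, then 5.69, 5.87 and 5.46. Its groups overlapped, with tumor differences of -0.08 ± 0.14 from blood (95% interval -0.39 to 0.24) and 0.08 ± 0.14 from bone marrow (-0.24 to 0.40), and with plain totals both passed, the first turning to 0.37 (adjusted p = 0.0153). Eif4a3, which belongs to the exon junction complex rather than to eIF4F, read 3.10, 2.81 and 2.97, then 2.86, 2.75 and 2.51, then 2.83, 3.12 and 2.98. It passed no test under the deposited scaling, and both tumor differences passed with plain totals (0.72 and 0.47). The ratio of Eif4a1 to Eif4a2 per exonic length was 1.51 to 2.24 in tumor, 0.594 to 0.793 in blood and 0.774 to 1.40 in bone marrow. The helicase cofactors were mixed as well: Eif4b rose against blood by 0.63 ± 0.15 (adjusted p = 0.00814) and Eif4h passed no test (-0.14 against bone marrow, which turned to 0.31 with plain totals). Eif4enif1, which carries eIF4E into the nucleus, was 0.56 ± 0.20 lower in tumor than in bone marrow (adjusted p = 0.046), a call lost without any 1 of 7 libraries (bone marrow replicates 2 and 3, tumor replicates 2 and 3 and all of blood, adjusted p up to 0.133).

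**Figure D4:**
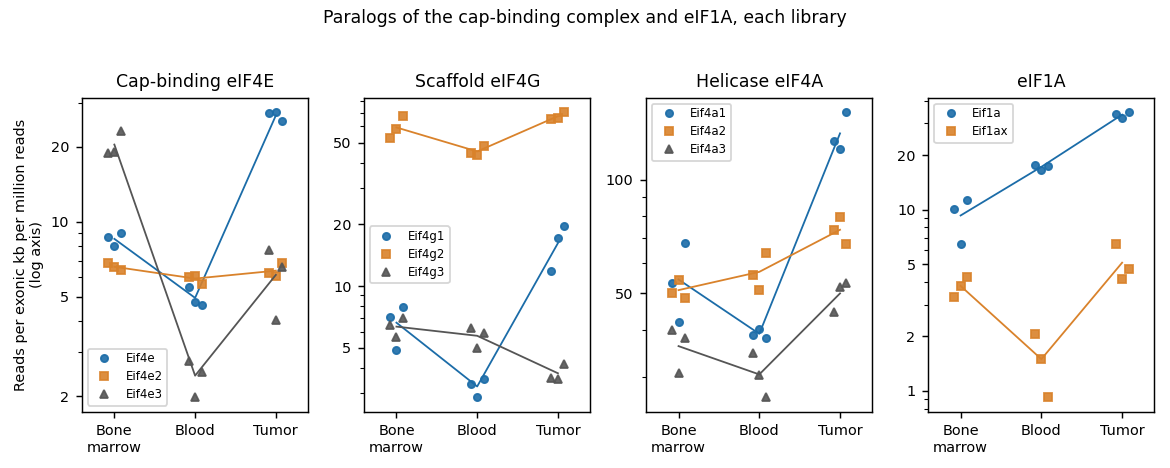
Exonic RPKM, RPM per kb of exons (log axis) of the paralogs of eIF4E, eIF4G, eIF4A and eIF1A in each library. Points are libraries and lines join the means of the compartments (n = 3 each). Eif4e, Eif4g1 and Eif4a1 peak in tumor, Eif4e3 peaks in bone marrow, and Eif4g3 is lowest in tumor.

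Promoter sequence was examined because the genes of the 3 eIF4F subunits rose together. The E-box CACGTG is bound by MYC with MAX and by other factors of their class, and Eif4e is a known MYC target. RefSeq promoters (GRCm38.p6, 250 bases before to 50 after each annotated start) were at hand for 46 of the 58 factors. CACGTG, which reads the same on both strands, occurred in 12 of them (26.1%), against 8.09% of 27025 genes. The 27025 are all genes with a promoter at hand, and no share was computed for the genes tested here. Of the 16 factors with a promoter and both calls higher 6 held it, and of the 21 other tested factors 5 (Eif4h, Eif3k, Eif3f, Eif1b and Eef2k). The 6 include Eif4e, Eif4g1 and Eif4a1, whose rise prompted the search, so these counts are not a test. Shown are the 6 with both calls, 30 bases each on the strand of the gene, with the motif in capitals.
Eif4e (chr3:138527192-138527221, +): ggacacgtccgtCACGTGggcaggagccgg
Eif4g1 (chr16:20672661-20672690, +): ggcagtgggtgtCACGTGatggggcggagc
Eif4a1 (chr11:69672595-69672624, -): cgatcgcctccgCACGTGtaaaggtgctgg
Eef2 (chr10:81176576-81176605, +): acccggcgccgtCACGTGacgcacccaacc
Eif5a (chr11:69921443-69921472, -): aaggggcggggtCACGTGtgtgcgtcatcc
Eif3a (chr19:60790654-60790683, -): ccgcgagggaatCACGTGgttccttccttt
The motif began 64, 54, 189, 43 and 74 bases before an annotated start in Eif4e, Eif4g1, Eif4a1, Eef2 and Eif5a, and 22 bases after it in Eif3a. Eif4e, Eif4g1 and Eif5a each held a further copy. A match of letters does not show that a factor is bound there, and a part of MYC in the rise was not tested.

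Of eIF5, eIF5A and eIF6, 2 of 3 genes tested rose against blood and 2 against bone marrow (28.1% and 22.4% of all genes). With plain totals 3 rose in each, beside 39.1% and 35.1% of all genes. Eif5a encodes the hypusine-bearing factor that helps ribosomes past difficult peptide bonds. It read 6.59, 6.48 and 6.57 log2 FPKM in bone marrow, 6.20, 6.31 and 6.12 in blood and 7.13, 6.97 and 6.82 in tumor. The groups did not overlap, and tumor was 0.76 ± 0.10 above blood (adjusted p = 0.000301) and 0.43 ± 0.10 above bone marrow (adjusted p = 0.00715). The paralog Eif5a2 had 7, 3 and 0 reads in bone marrow, 12, 16 and 21 in blood and 19, 22 and 5 in tumor, and per exonic length Eif5a had 173 to 1992 times as many in the libraries with a read. Eif5, which makes eIF2 hydrolyze its GTP at the start codon, read 4.93, 5.06 and 5.02 in bone marrow, 5.19, 5.23 and 5.31 in blood and 5.86, 5.80 and 5.21 in tumor. Tumor replicate 3 fell among the blood libraries. The difference passed against bone marrow (0.62 ± 0.16, adjusted p = 0.0128) and not against blood (0.38 ± 0.16, adjusted p = 0.0724). Eif6, which keeps the large ribosomal subunit free, read 3.36, 3.32 and 3.55, then 2.91, 3.34 and 2.65, then 3.81, 3.81 and 3.83, and rose against blood (0.85 ± 0.17, adjusted p = 0.00255). Eif5b, the subunit-joining GTPase, was below the filter with 33 to 125 reads in bone marrow and blood and 184 to 289 in tumor (limma-voom log2 1.46 against blood, adjusted p = 0.000929, and 0.98 relative to bone marrow, adjusted p = 0.00522).

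Of the eEF1 and eEF2 genes, 6 of 7 rose against blood and 5 against bone marrow, beside 28.1% and 22.4% of all genes, the 6 and the 5 counting Eef1e1, which was selected by its tumor libraries. With plain totals it was 6 and 6, beside 39.1% and 35.1% of all genes. Eef2k was lower against blood, the compartment that selected it. Eef1a1 (chr9:78478449-78489151, GRCm38), which brings aminoacyl-tRNA to the ribosome, was the most abundant factor in each compartment per exonic length, at 1358 ± 274 exonic RPKM in tumor, 582 ± 84.8 in bone marrow and 399 ± 57.7 in the blood (SD, n = 3). After it in tumor came Eif5a with 319 ± 29.1, Eif1 with 254 ± 18.6 and Eef2 with 219 ± 38.5. The libraries of Eif1 and Eef2 overlapped, while those of Eef1a1 and Eif5a did not overlap with another of these. On the log2 FPKM scale Eef1a1 read 7.35, 7.18 and 7.45 in bone marrow, 6.96, 6.80 and 6.57 in blood and 8.01, 7.94 and 8.31 in tumor. It rose in tumor by 1.31 ± 0.14 against blood (adjusted p = 0.000124) and 0.76 ± 0.14 over bone marrow (adjusted p = 0.00258), and fell by 0.55 ± 0.14 from bone marrow to blood (adjusted p = 0.0164, and up to 0.0584 without bone marrow replicate 1 or 3 or blood replicate 3).

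The exchange factor eEF1B, which recharges eEF1A with GTP, rose through its delta and gamma subunits. Eef1d read 1.08, 0.56 and 0.73 log2 FPKM in bone marrow, 0.44, 0.59 and 0.14 in blood and 2.49, 2.18 and 2.26 in tumor. Bone marrow and blood overlapped and tumor stood apart, 1.92 ± 0.19 above blood (adjusted p = 7.56e-05) and 1.52 ± 0.19 above bone marrow (adjusted p = 0.000307). Eef1g read 3.70, 3.34 and 3.70, then 3.28, 3.40 and 3.19, then 4.82, 4.49 and 5.13. Its rise was 1.52 ± 0.18 against blood (adjusted p = 0.000164) and 1.23 ± 0.18 over bone marrow (adjusted p = 0.000601). The catalytic beta subunit gene Eef1b2 passed against blood alone, where the groups overlapped (0.90 ± 0.29, adjusted p = 0.0271), and that call was lost without blood replicate 2 or 3 or tumor replicate 1 or 3 (adjusted p up to 0.0818). Eef1e1, in spite of its name a scaffold of the tRNA synthetase complex, read -0.98, -1.27 and -1.03 in bone marrow, -5.53, -4.15 and -3.60 in blood and 0.85, 0.38 and 0.44 in tumor. The blood values rest on 1, 4 and 5 reads, beside 31 to 45 in bone marrow and 131 to 149 in tumor. Its difference from blood of 4.98 ± 0.49 (adjusted p = 7.56e-05) therefore depends on the small constant under the logarithm, and with 1 FPKM added it was 1.23. It passed the filter through the tumor libraries alone, and its call against bone marrow (1.65 ± 0.49, adjusted p = 0.022) was lost without tumor replicate 1 or any 1 bone marrow library (up to 0.069).

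Eef2, the translocase, ranged over 6.59 to 6.92 log2 FPKM in tumor, 6.28 to 6.39 in bone marrow and 6.02 to 6.40 in blood. It rose by 0.53 ± 0.12 against blood (adjusted p = 0.00581) and 0.40 ± 0.12 over bone marrow (adjusted p = 0.0232, and up to 0.0693 without bone marrow replicate 2 or 3 or tumor replicate 3). Eef2k, the kinase that inhibits eEF2, went another way: -0.91, -0.99 and -0.91 in bone marrow, 0.51, 0.57 and 0.40 in blood and -1.10, -0.87 and -0.56 in tumor. Blood was high and the others overlapped. Blood was 1.43 ± 0.21 above bone marrow (adjusted p = 0.00108), and tumor 1.34 ± 0.21 below blood (adjusted p = 0.000732). Eef2k passed the filter through its blood libraries alone, so a high value there was built into its selection. Eef2kmt, a methyltransferase of eEF2 below the filter, had 9 to 52 reads and passed no test.

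**Figure D5:**
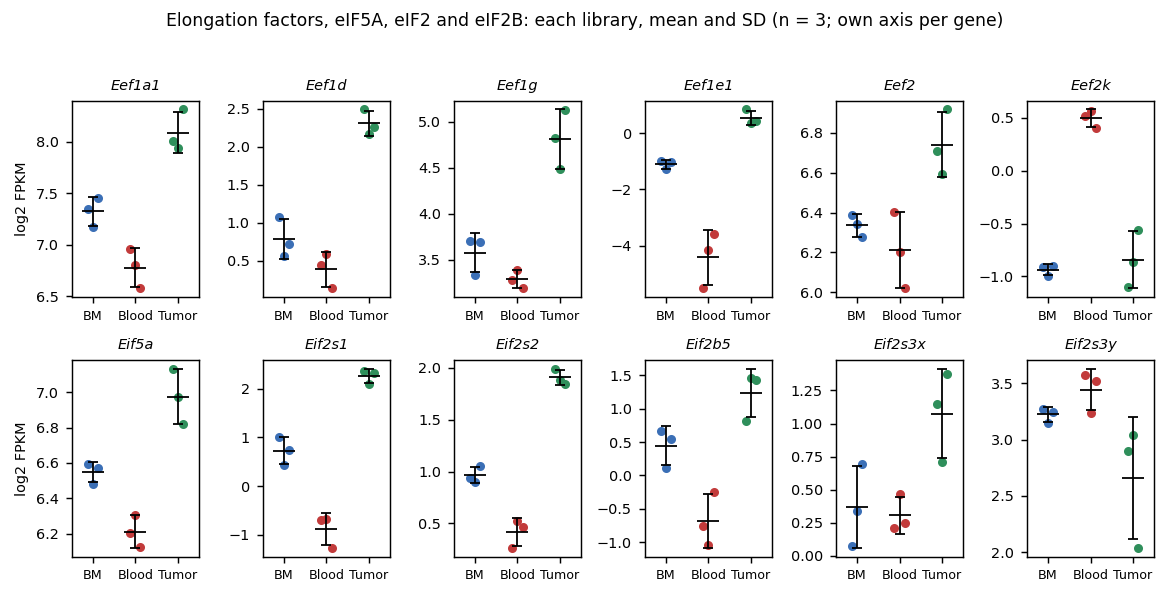
Values in log2 FPKM of 12 factors in each library, with the mean and SD of each compartment (n = 3, BM is bone marrow) and an axis of its own for each gene. Most genes are lowest in blood and highest in tumor, Eef2k is highest in blood, and Eif2s3y is lowest in tumor.

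Blood stood below bone marrow and tumor above it for 26 of the 46 factors by their means, and for 15 all 3 differences passed the test. Of all 7794 genes tested, 19.6% had that order of means and 4.18% had it with all 3 calls. Both counts of factors include Eef1e1, which passed the filter by its tumor libraries alone and had 1, 4 and 5 reads in blood. Eif1a rose from bone marrow to blood, as did Eef2k, which passed the filter by its blood libraries. The calls of Eif3h, Eif3i, Eif2b5, Eif4a1 and Eif5a in blood against bone marrow were each lost without bone marrow replicate 3 (adjusted p up to 0.126 over all libraries left out). They were also lost without bone marrow replicate 1 (Eif2b5, Eif3h, Eif4a1, Eif5a) or 2 (Eif3h, Eif3i), without blood replicate 1 or 3 (Eif4a1, Eif5a), and for Eif3h without blood replicate 2 or 3 or tumor replicate 1 or 2. In the same comparison the immature neutrophil markers and the cell cycle genes given above were lower in every blood library, and their part in the decline was not tested.

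Of 25 regulators of translation, 15 were tested. Against blood 3 rose and 7 fell, beside 28.1% and 34.5% of all genes, and against bone marrow 3 rose and 8 fell, beside 22.4% and 32.9%. With plain totals it was 4 and 7 of 14, then 5 and 6, beside 39.1% and 24.2%, then 35.1% and 20.7% of all genes. In limma-voom, with all 25 measured, 8 were higher and 9 lower against blood, and 7 and 9 against bone marrow. The shares of all genes there were 33.1% and 21.9%, then 29.3% and 21%. Whether the regulators differ from the factors was not tested. Lower in tumor than in both were 2 genes of 4E-binding proteins, which hold eIF4E inactive, Eif4ebp1 by 1.77 ± 0.14 and 0.81 ± 0.14 (blood and bone marrow, adjusted p = 2.69e-05 and 0.00186) and Eif4ebp2 by 2.11 ± 0.32 and 1.71 ± 0.32 (adjusted p = 0.000663 and 0.00245). Eif4ebp3 was below the filter and was not called in limma-voom (0.06 and 0.73). The eIF4E kinase gene Mknk1 was lower by 1.87 ± 0.17 and 1.01 ± 0.17, the S6 kinase gene Rps6kb2 by 1.04 ± 0.10 and 1.27 ± 0.10, the heme-regulated eIF2-alpha kinase gene Eif2ak1 by 1.11 ± 0.19 and 1.29 ± 0.19, and Paip2, an inhibitor of poly(A)-binding protein, by 1.07 ± 0.12 and 0.44 ± 0.12. The regulatory subunits that direct a phosphatase to eIF2-alpha went opposite ways. Ppp1r15a, the stress-induced one, averaged 8.16 log2 FPKM in tumor, 3.25 in bone marrow and 4.43 in the blood, 3.73 ± 0.26 above blood and 4.91 ± 0.26 above bone marrow (adjusted p = 1.48e-05 and 5.12e-06). Ppp1r15b, the constitutive one, was lower by 0.95 ± 0.11 and 1.39 ± 0.11. Impact, an inhibitor of the eIF2-alpha kinase GCN2, and Abcf1, a ribosome-associated ATPase, rose against both (1.37 and 2.24, and 0.91 and 0.61). The GCN2 gene itself, Eif2ak4, was below the filter and was higher in limma-voom by 2.34 against blood (adjusted p = 0.000284) and 1.96 over bone marrow (adjusted p = 0.00034). Eif2ak3, the kinase PERK, also below the filter, was lower there by 1.69 and 0.65 (adjusted p = 5.29e-05 and 0.0462).

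Of 18 other cytosolic factors 9 were tested. Against blood 7 rose and against bone marrow 7 (28.1% and 22.4% of all genes), with none of the 9 lower. The counts were the same with plain totals, beside 39.1% and 35.1% of all genes higher and 24.2% and 20.7% lower. In limma-voom, with all 18 measured, 14 were higher and 1 (Secisbp2) lower against blood, and 9 were higher and 2 (Dhx29 and Mcts1) lower against bone marrow. The shares of all genes there were 33.1% and 21.9%, then 29.3% and 21%. The 7 called by limma on the deposited values were the same genes: Abce1 (3.16 ± 0.19 and 1.53 ± 0.19), which recycles ribosomes, the release factor gene Etf1 (1.74 and 1.36), Ddx3x (1.22 and 0.99), Denr (1.78 and 1.07), the poly(A)-binding protein gene Pabpc1 (0.64 and 0.44), and Dhps and Dohh. The last pair makes hypusine on eIF5A and was higher by 0.96 ± 0.18 and 0.74 ± 0.18 (Dhps) and by 2.26 ± 0.24 and 1.15 ± 0.24 (Dohh). Denr, counted among the 7, passed the filter through its tumor libraries alone, so its rise was built into its selection. Of 9 mitochondrial factors only Tufm passed the filter. It rose against blood (1.61 ± 0.17, adjusted p = 0.000116), and its difference from bone marrow was 0.14 ± 0.17 (adjusted p = 0.515). In limma-voom 6 of the 9 were higher against blood and 4 against bone marrow, beside 33.1% and 29.3% of all genes.

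Several factors have near-identical copies elsewhere in the genome, so their counts are uncertain. Stretches of 100 bases found also in transcripts of other genes made up 60.8% of those of Eif4a1 (a pseudogene and a predicted gene), 49.4% of Eef1g, 34.6% of Eif2s3x, 23.5% of Eef1a1, 14.3% of Eif2s2 and 12.5% of Eif1. For Eif4e, Eif2s1 and Eef1d it was under 5%, and for Eif4g1, Eif3g and Eif3a none were found.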

How the data were processed

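The members and the gene and marker lists were chosen with earlier results of these data known. The deposited values are log2 FPKM of 46517 genes in 9 libraries, made by the authors from SMART-Seq v2 reads with STAR 2.5.2b and featureCounts 1.5.0 on GRCm38 with GENCODE M7, from pools of mice in 3 independent experiments. Whole reads were recovered for all 46517 genes (within 1e-06 of a whole number). Removal of duplicate reads is not given in the sources used here. The FPKM length equals the genomic span for 84.5% of the 46005 genes also in GENCODE M21. Levels of different genes were therefore compared with M21 lengths, as exonic RPKM (plain library totals). Compartments were compared with limma 3.58.1 (R 4.3.3, intensity trend) over 7794 genes with log2 FPKM above 0 in 3 or more libraries. Each compartment had a coefficient of its own, with Benjamini-Hochberg adjustment at 0.05. The fit was tested on simulated data. Fold changes of low genes depend on the small constant in the deposited values. Named with library values were the 4 members of smallest F test p in each role group and the preset paralogs. Alternatives were no filter, a filter at log2 FPKM of 2, 1 FPKM added, a replicate block, plain library totals, limma-voom on recovered reads (at least 5 reads in any library), only the 2 compartments compared, and leaving out each library.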

Additional observations from a re-analysis of the deposited data

How the results depend on the processing

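Over 138 member differences (46 members in 3 comparisons), a difference called in either fit changed direction for 4, all under plain library totals instead of the deposited scaling: Eif4a2 in tumor against blood became 0.37, Eif4e2 against blood 0.10, Eif4g2 against bone marrow 0.19 and Eif4h against bone marrow 0.31 (log2). Differences called in neither changed sign in 34 cases over the alternatives. Of the 82 called differences 22 were lost without some 1 library and 60 kept their call. A filter at log2 FPKM of 2, which tests fewer members, gave 18 higher and 1 lower for tumor against blood, 14 and 2 against bone marrow, 1 and 12 for blood against bone marrow, and 13 higher and 0 lower in both tumor comparisons. Without a filter 12 members were higher in tumor than in bone marrow, 12 lower in blood than in bone marrow, 11 higher and 2 lower in both tumor comparisons. With plain totals 1 was lower against blood, 1 against bone marrow and 0 in both. Fits of only the 2 compartments compared gave 2 lower against blood and 0 in both. Members lower in both numbered 2 with 1 FPKM added and 3 in limma-voom. Leaving out 1 library at a time gave 26 to 29 higher and 2 to 4 lower for tumor against blood, 15 to 24 and 2 to 4 against bone marrow, 2 to 3 and 14 to 20 for blood against bone marrow, and 14 to 21 higher and 0 to 1 lower in both, the fewest higher without bone marrow replicate 2. Among these alternatives, shares of all genes were computed only for single comparisons under plain totals and limma-voom. The remaining counts show how the calls move with the setting, and not how the members stand beside all genes. Libraries with the same replicate number correlated at -0.07 to 0.11 in their deviations from the group means (9 pairs), beside -0.1 to 0.11 for other numbers (18 pairs), so the numbers were not taken to pair the libraries, although the study describes the compartments as taken from the same animals. With the replicate block 0 members were lower in both and 128 of the 138 differences kept their side of the threshold. The cause of these shifts was not tested beyond the number of genes or samples that enter. Depth limits Eef1e1 in blood, Eif3j2 and Eif5a2, which had few reads.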
